A study of Mus musculus with 12 samples.

Results

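CpG methylation was examined at 10 genes of cardiac calcium handling and membrane junctions: the calcium channels Cacna1c and Ryr2, the calcium buffer Casq2, the pump Atp2a2 and its inhibitor Pln, the exchanger Slc8a1, and the junctophilins Jph1, Jph2, Jph3 and Jph4. Members were the cytosines of the deposited table that lay inside these genes or within 5 kb of them (coordinates of GRCm38) and had a value in all 12 samples. This gave 297 of the 312650 cytosines with a value in every sample. The table listed 455 cytosines in these regions, of which 158 lacked a value in at least 1 sample. Of the genes, 9 held sites and Pln held 0. Members were selected on position and on complete values, with no limit on the methylation level. The genes, and the comparison of Jph2 with Jph3 and Jph4, were chosen with mean levels of these 12 samples in view, so the levels are given as a description and carry no test.

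Left ventricle DNA was profiled in 12 wild-type FVB/N mice aged 3 weeks by reduced representation bisulfite sequencing (RRBS). In RRBS the enzyme MspI cuts DNA at CCGG, and bisulfite treatment then separates methylated from unmethylated cytosines. From the age of 6 weeks the mothers ate regular chow (regular diet, RD) or fat-rich chow (high-fat diet, HFD), and they were mated with RD-fed males 8 weeks later and stayed on their diet. There were 6 mice with HFD mothers (3 females, 3 males) and 6 with RD mothers (4 females, 2 males), all at the age of weaning. The labels do not say how many mothers the offspring came from, so litter mates may be counted as separate replicates and p-values then measure only the spread between these mice. A ventricle sample mixes cardiomyocytes with endothelial cells, fibroblasts and blood cells, and its methylation level is an average over them.

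In a cardiomyocyte each beat begins when calcium enters through the L-type channel and opens the ryanodine receptor, which releases far more calcium from the sarcoplasmic reticulum. The pump Atp2a2 returns that calcium to the store while the exchanger Slc8a1 moves it out of the cell. Junctophilins tether the cell membrane to the store so that both channels face each other. Jph2 is the main cardiac junctophilin, Jph1 is typical of skeletal muscle, and Jph3 and Jph4 are known from the brain. Methylation of CpG sites around a gene start is usually low where the start lies in a CpG island, a stretch rich in CpG.

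The 250 bases before a RefSeq start are shown for the members whose starts the comparison turns on, with every CpG in capitals (build GRCm38.p6, gene strand, written 5′ to 3′). They differ in how many CpG they hold: the 300 base window that runs 50 bases past the start held 34 CpG in Jph3, 10 in Jph4, 9 in Slc8a1 and 7 in Jph2, against a median of 7 over 32851 such windows. The Jph3 count exceeded that of 92.3% of those windows. The Jph2 stretch is chr2:163397994-163398243 on the minus strand, that of Jph3 chr8:121730309-121730558 on the plus strand, that of Jph4 chr14:55116936-55117185 on the minus strand and that of Slc8a1 chr17:81738388-81738637 on the minus strand.
Jph2: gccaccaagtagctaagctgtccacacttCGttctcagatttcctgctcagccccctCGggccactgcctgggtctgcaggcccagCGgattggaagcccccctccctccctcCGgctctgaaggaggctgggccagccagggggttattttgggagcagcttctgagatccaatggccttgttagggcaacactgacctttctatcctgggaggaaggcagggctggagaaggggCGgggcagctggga
Jph3: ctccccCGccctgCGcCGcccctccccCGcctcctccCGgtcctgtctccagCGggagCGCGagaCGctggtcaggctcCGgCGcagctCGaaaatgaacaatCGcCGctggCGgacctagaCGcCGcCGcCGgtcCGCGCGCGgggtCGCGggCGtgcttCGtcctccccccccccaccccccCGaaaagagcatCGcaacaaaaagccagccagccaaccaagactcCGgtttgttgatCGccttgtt
Jph4: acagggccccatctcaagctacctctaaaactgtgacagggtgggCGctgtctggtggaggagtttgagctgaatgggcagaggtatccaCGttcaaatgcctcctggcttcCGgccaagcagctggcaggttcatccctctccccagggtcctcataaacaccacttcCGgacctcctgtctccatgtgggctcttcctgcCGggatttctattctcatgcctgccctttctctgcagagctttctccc
Slc8a1: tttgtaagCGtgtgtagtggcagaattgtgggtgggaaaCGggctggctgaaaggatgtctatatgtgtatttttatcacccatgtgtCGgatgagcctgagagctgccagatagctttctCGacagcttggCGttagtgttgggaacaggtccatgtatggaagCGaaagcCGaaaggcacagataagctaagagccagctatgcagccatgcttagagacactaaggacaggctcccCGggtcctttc
The letters CG, which read the same on both strands, occurred in 94.6% of the 32851 windows and the MspI letters CCGG in 52.8%. CCGG occurred 4 times in the window of Jph3, 3 times in that of Jph4 and 1 time each in those of Jph2 and Slc8a1. Measured cytosines within the printed bases numbered 1 in Jph2, 2 in Slc8a1 and 0 in Jph3 and Jph4, so most start values below come from sites farther from the start. The reference tables held no start window for Jph1 and Atp2a2, whose strand is therefore not given here, and distances to both ends of these genes were used instead.

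Between 385299 and 417081 of the 421177 listed cytosines had a value in a sample, fewest in HFD male 4. Values are percentages without read counts, and their depth is unknown. Library numbers ran from 2 to 8 in HFD and from 9 to 14 in RD mice, so an effect of the order of libraries and one of the diet cannot be told apart. None of 8 cardiomyocyte marker genes had the 3 measured sites near its start needed for a value (0 of 5 endothelial and 0 of 5 leukocyte markers had them either), so the tissue label could not be checked from these starts. Markers of other cells with a value were Pdgfra of fibroblasts at 1.62% (0.995 to 2.52% over the 12 mice), Tubb3 of neurons at 1.14% (0 to 3.45%) and Myod1 of skeletal muscle at 9.66% (6.18 to 13.2%).

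Members fell into 3 kinds of places. Of the 297 cytosines, 88 lay within 1 kb of a gene start, 199 elsewhere inside a gene and 10 in the flanks. A mean level of 20 to 80% over the 12 mice was found at 144 of them (48.5%), against 19.8% of all 306534 autosomal cytosines with complete values. The share was 83.7% in Jph2 (36 of 43), 68.8% in Jph3 (44 of 64), 56.1% in Cacna1c (37 of 66), 30.3% in Jph4 (10 of 33) and 12.1% in Ryr2 (4 of 33). All 6 sites of Slc8a1 and 0 of the 28 of Jph1 lay in that range. Neighbouring sites can share a fragment, so these counts are not independent measurements. The 89 listed cytosines with a value in 11 mice, just outside the rule, had a median level of 22.1%, and the 297 members one of 37.6%. The member farthest from its gene lay 4514 bp outside Casq2 at 20.2%, and the nearest complete cytosine beyond 5 kb lay 5446 bp from Atp2a2 at 52.8%.

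Within 1 kb of the start, 7 of the 9 measured genes had mean levels under 8%, while Jph2 and Slc8a1 stood higher. The order of the means over the 12 mice ran from Atp2a2 at 0.767% through Ryr2 at 2.29%, Cacna1c at 2.40%, Casq2 at 2.64%, Jph1 at 2.98%, Jph3 at 4.39% and Jph4 at 7.63% to Jph2 at 29.7% and Slc8a1 at 46.1%. The ranges of neighbours in this order overlapped, except between Jph4 (4.34 to 10.4%) and Jph2 (22.3 to 37.6%), where all 12 mice had Jph2 above Jph4. Over the 10783 autosomal gene starts with at least 3 sites the median was 2.52%, 67.1% lay under 5% and 11.5% at 20 to 80%. Jph2 lay above 83.3% of these starts and Slc8a1 above 86.1%.

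**Figure D1:**
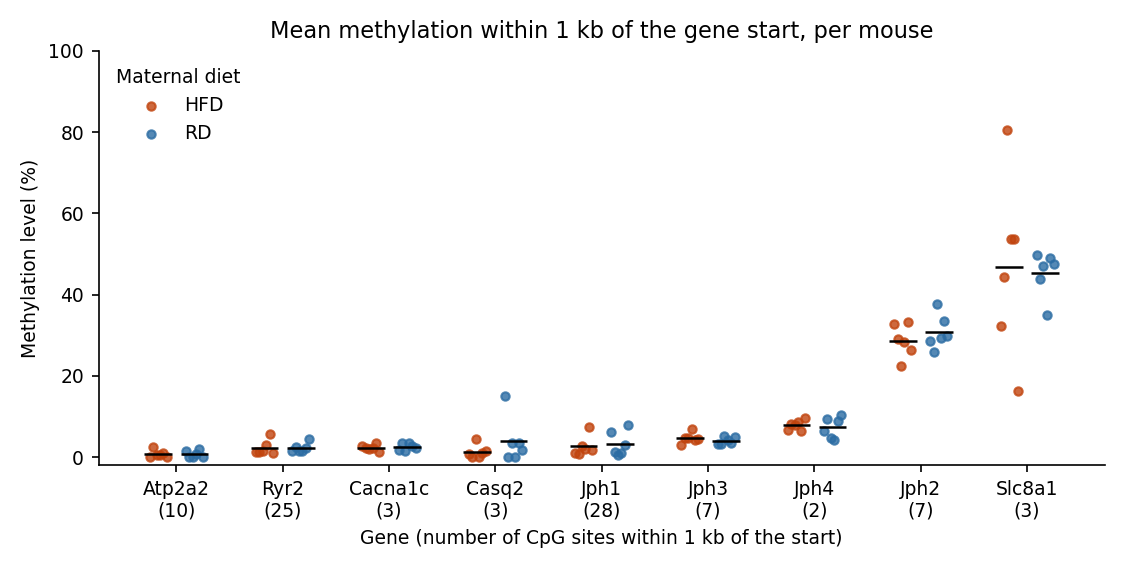
Mean methylation level (%, linear axis) within 1 kb of the start of each measured gene, 1 point per mouse, coloured by maternal diet, with the diet mean as a bar and the number of CpG sites in brackets. Points of 7 genes lie mostly under 10%, those of Jph2 between 22.3 and 37.6% and those of Slc8a1 between 16.4 and 80.6%.

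Cacna1c encodes the pore of the L-type calcium channel. It spans chr6:118587240-119197384 on the minus strand and has several RefSeq starts, of which 1 (at position 119108495) sits in a window of 57 CpG and had measured sites. At the 3 sites there the 6 HFD mice ranged from 1.32 to 3.45% (median 2.15%) and the 6 RD mice from 1.52 to 3.54% (median 2.48%). Away from the starts the 63 inside sites averaged 60.7% ± 1.203 in HFD and 61.6% ± 1.73 in RD mice (SD, n = 6 each). Values of the diets overlapped. Of the Cacna1c sites, 5 also lie in the non-coding gene 1700080F18Rik, 3 in Dcp1b and 1 in Gm50599, and cannot be assigned to Cacna1c alone.

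Ryr2, the calcium release channel of the cardiac sarcoplasmic reticulum, spans chr13:11553099-12106945 on the minus strand. Its 25 start sites had a median mouse value of 1.40% in HFD (1.03 to 5.69%) and 1.89% in RD mice (1.43 to 4.45%). The 8 sites deeper in the gene averaged 76.7% ± 3.15 (SD, n = 12). In every mouse the start was low and the body high. The 5 males averaged 3.28% ± 1.83 (SD) at the start and the 7 females 1.58% ± 0.415, with overlapping values, and this difference was not tested. HFD male 3 (5.69%) and RD male 2 (4.45%) were the highest males, and the other males had 1.03, 2.22 and 2.99%.

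Casq2 binds calcium inside the store. It spans chr3:102086415-102146514 on the plus strand. At the 3 start sites the HFD mice lay between 0 and 4.43% (median 0.971%) and the RD mice between 0 and 15.1% (median 2.64%), with 1 RD female at the upper end. The 6 inside sites averaged 66.2% ± 3.32 in HFD and 72.9% ± 4.87 in RD mice (SD, n = 6 each), and values of the groups overlapped. Of these 6 sites, 3 form the stretch at chr3:102099450-102099488, where the means were 41.3 and 54.8%.

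Atp2a2 encodes the pump that refills the store and spans chr5:122453513-122502225. Its 10 start sites, near the upper-coordinate end of the gene, were listed at 0 to 2.45% in HFD mice (median 0.5996%) and 0 to 2.09% in RD mice (median 0.397%). The 4 remaining sites averaged 77.9% ± 5.92 (SD, n = 12). Pln, the inhibitor of that pump, spans chr10:53337686-53345999 within the limits of Cep85l. No cytosine there was listed, and its start window held 1 CpG and no CCGG.

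Slc8a1 exchanges sodium for calcium across the cell membrane and spans chr17:81373105-81738387 on the minus strand. Upstream of it 3 CpG sites were measured, at -211, -242 and -271 bases from the start (chr17:81738598-81738658). The mean of the 3 sites was 32.3, 44.4 and 80.6% in HFD females 2, 3 and 4 and 53.7, 53.7 and 16.4% in HFD males 2, 3 and 4. In RD females 1 to 4 it was 49.7, 43.7, 47.2 and 35.0%, and in RD males 1 and 2 it was 49.0 and 47.5%. The 6 RD mice lay between 35.0 and 49.7%, whereas HFD female 4 stood above and HFD male 4 below all other mice. The SD was 21.8 percentage points in HFD and 5.46 in RD mice around nearly equal means of 46.8 and 45.3%. Without HFD female 4 the HFD SD was 15.9 points, without HFD male 4 it was 17.8 and without both it was 10.2. Among 316 gene starts with 3 sites and a mean of 20 to 80%, the HFD spread of Slc8a1 exceeded 99.7% and its RD spread 64.6%. This rank includes HFD female 4 and HFD male 4. It was taken after the spread was seen, so it is a description and no test. HFD male 4 is also the library with the fewest measured cytosines, and the part of that in the result was not tested. At each of the 3 sites HFD female 4 was the highest mouse (71.4 to 85.7%) and HFD male 4 the lowest (9.09 to 30.0%). Sites this close can share a fragment, so they are not 3 independent measurements of a mouse. The 3 sites inside the gene gave a mean of 58.3% ± 3.99 in HFD and 59.7% ± 3.35 in RD mice (SD, n = 6 each).

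**Figure D2:**
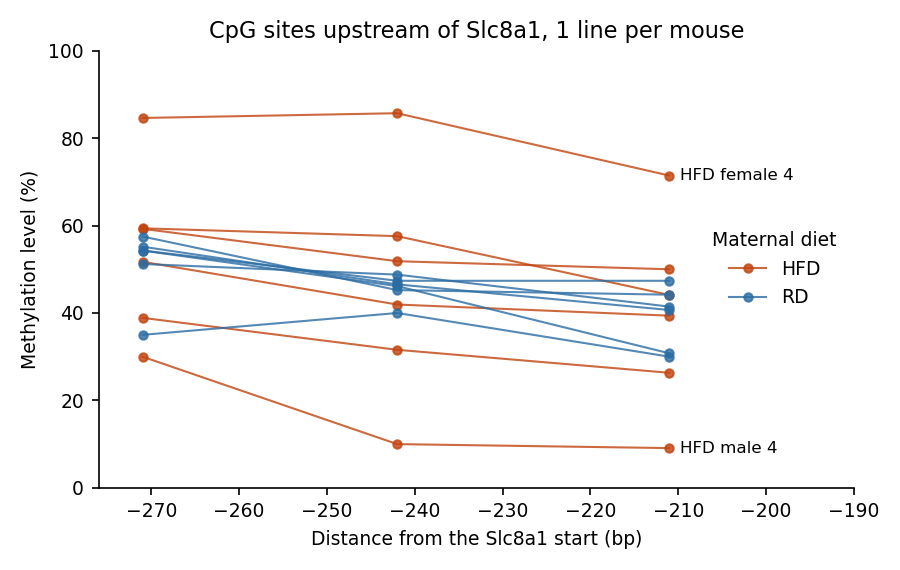
Methylation level (%) at the 3 CpG sites upstream of Slc8a1 against distance from the start in base pairs, with 1 line per mouse coloured by maternal diet. HFD female 4 (71.4 to 85.7%) and HFD male 4 (9.09 to 30.0%) lie apart from the other mice at all 3 sites, which can share a fragment and are not independent measurements.

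Among the junctophilins, Jph1 spans chr1:16942104-17097922, and its 28 sites all lay near the upper-coordinate end. They averaged between 0.843 and 7.37% in HFD mice (median 1.92%) and between 0.627 and 7.81% in RD mice (median 2.12%). All 28 sites had means under 13%, the highest being 12.5%. The 5 males averaged 4.39% ± 2.96 and the 7 females 1.97% ± 2.03 (SD), with overlapping values (1.89 to 7.81% and 0.627 to 6.27%), and the difference did not pass (limma, unadjusted p = 0.0692, adjusted p = 0.874). As at the Ryr2 start, HFD male 3 (7.37%) and RD male 2 (7.81%) were the highest males. The other males had 1.89, 1.96 and 2.91%.

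Jph2 spans chr2:163336242-163398049 on the minus strand. It has 2 RefSeq starts, at 163397993 (the sequence printed above) and 163397973 (8 CpG in its window), and distances are to the nearer one. Around them 7 sites were measured, 1 in the printed upstream bases at 12.7% (position -137) and 6 between 346 and 596 bases downstream at 17.4 to 44.0%. Mouse means over the 7 sites ran from 22.3 to 33.4% in HFD (median 28.7%) and from 25.8 to 37.6% in RD mice (median 29.5%). Every mouse thus had an intermediate mean over these 7 sites, most of them downstream. At the upstream site alone, mice ran from 0 to 16.7% in HFD and from 10.6 to 23.8% in RD. The 34 sites deeper in Jph2 averaged 40.1% ± 3.57 (SD, n = 12), and none of the 43 Jph2 sites had a mean under 5% or over 95%. Among the stretches of Jph2 with at least 3 sites, the one with the largest spread between mice, 11 sites at chr2:163339549-163339614, ran from 12.1 to 26.5% in HFD (median 18.3%) and from 14.6 to 36.8% in RD mice (median 25.5%). Of the Jph2 sites, 2 also lie in the non-coding gene Gm35750.

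Jph3 (chr8:121730559-121791083, plus strand) and Jph4 (chr14:55106826-55116935, minus strand) had lower starts. The 7 Jph3 start sites gave mouse means of 3.12 to 6.995% in HFD (median 4.59%) and 3.31 to 5.14% in RD mice (median 3.82%). Of the Jph3 sites, 4 also lie in the non-coding gene Gm46065, which ends within 1 kb of the same 7 sites. Upstream, at -1191 and -1215 bases, 2 Jph3 sites already averaged 35.5% ± 5.67 (SD, n = 12), and the 55 inside sites 56.6% ± 2.07. Jph4 had 2 start sites, at 6.48 to 9.58% in HFD (median 8.06%) and 4.34 to 10.4% in RD mice (median 7.65%). Its 26 inside sites averaged 15.4% ± 2.19. Within Jph4, a stretch 1828 to 1898 bases past the start averaged 0.799% ± 0.585 and the next, 2990 to 3063 bases past it, 25.1% ± 6.58 (SD, n = 12), both singled out after their values were seen. Beyond the end of Jph4, 5 sites 11845 to 13984 bases past the start averaged 92.4% ± 0.895 and lie inside the neighbouring gene Ap1g2.

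Measured within each mouse, the Jph2 start exceeded the Jph3 start by 25.3 percentage points ± 4.33 (SD, n = 12 differences, 17.5 to 32.5). The difference was 24.0 ± 4.78 in HFD and 26.7 ± 3.75 in RD mice (SD, n = 6 each) and positive in 12 of 12. Jph2 exceeded Jph4 by 22.1 points ± 5.27 (14.4 to 32.9), also in 12 of 12 mice, 20.8 ± 5.02 in HFD and 23.4 ± 5.63 in RD. With only the sites within 500 bases of the starts, the difference between Jph2 and Jph4 was 16.8 points, and Jph3 had no site that close. Deeper in the genes the order was another one: Jph3 (52.9 to 58.9% over the 12 mice) lay above Jph2 (34.6 to 46.5%) and Jph2 above Jph4 (13.01 to 19.8%), with no overlap. These are comparisons of different sequences at different distances from the start, and the gap between genes was larger than the spread between mice in each.

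**Figure D3:**
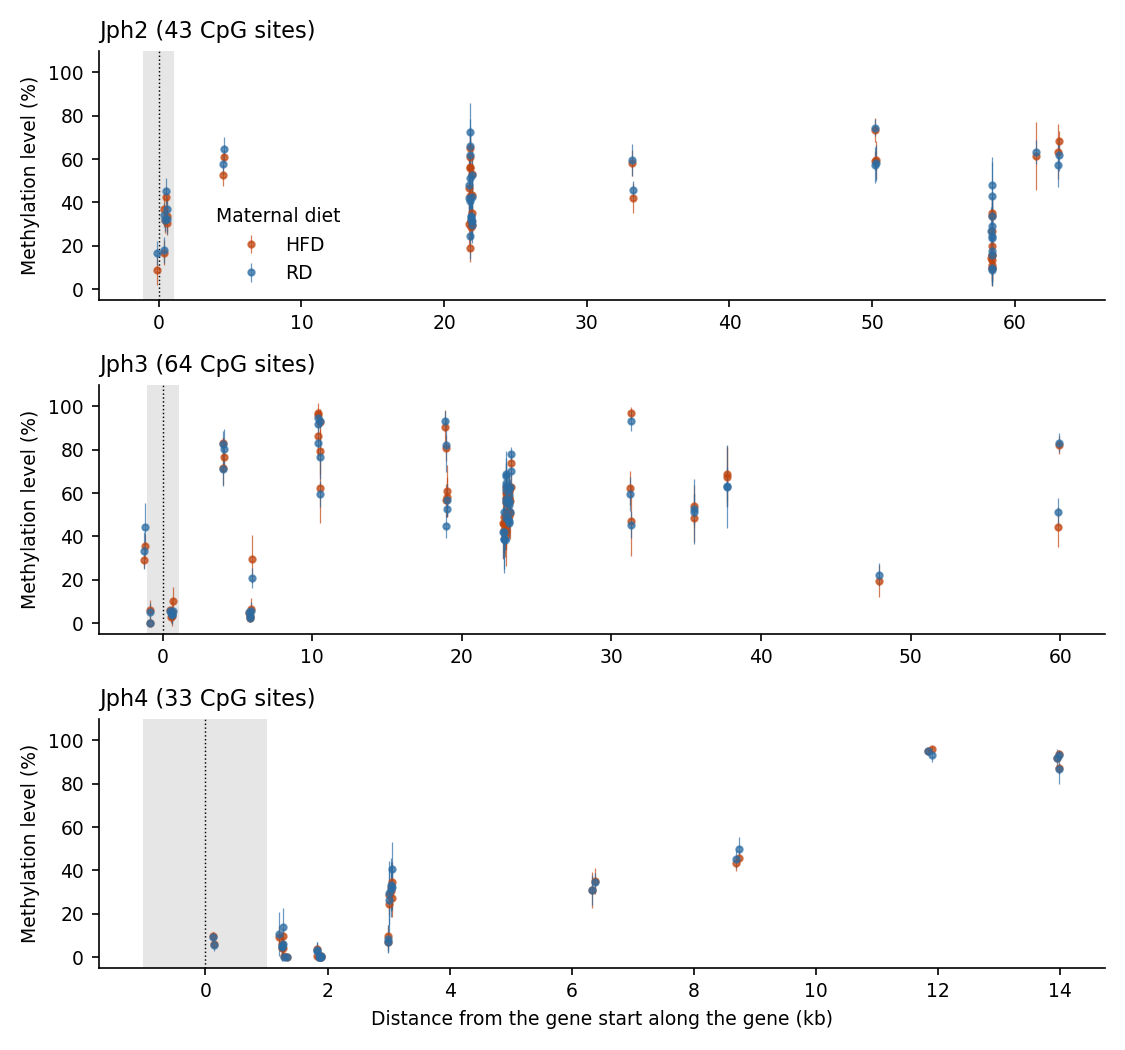
Methylation level (%) of each CpG site of Jph2, Jph3 and Jph4 against distance from the gene start in kb, as the mean ± SD of the 6 mice of each maternal diet, with 1 kb on each side of the start shaded. Inside the shading the diet means of Jph3 and Jph4 sites reach at most 10.1%, and those of Jph2 sites run from 8.69 (HFD mean of the upstream site) to 45.3%, the next lowest being 16.7%.

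The diets were compared with limma on log2 ratios of methylated to unmethylated rates, with sex as a further term and Benjamini-Hochberg adjustment over all features. At single sites with a mean of 5 to 95%, 1 of 210 member sites was called at an adjusted p under 0.05, against 0.0102% of all 157524 sites (16 sites). The called site lies inside Jph3 at chr8:121740979, 10420 bases past the start. HFD mice had 100, 96.7 and 100% (females 2 to 4) and 93.6, 95.5 and 95.5% (males 2 to 4), and RD mice had 84.4, 87.5, 81.0 and 89.5% (females 1 to 4) and 76.7 and 79.4% (males 1 and 2). All 6 HFD values lay above all 6 RD values. The means were 96.9% ± 2.63 and 83.1% ± 4.92 (SD, n = 6 each), a rise in HFD of 1.80 on the log2 ratio scale (SE 0.23, limma, adjusted p = 0.0319). The call was lost in 11 of 12 fits that each left out 1 mouse (adjusted p up to 0.172) and was kept without RD female 4 (adjusted p = 0.0368). It was also lost with an offset of 0.01 in the ratio (adjusted p = 0.1295), without the sex term (0.105) and with missing values allowed (0.0761), with the direction kept. In the same stretch, the sites 10393 and 10379 bases past the start had overlapping diets, at 86.5% ± 11.01 in HFD and 92.0% ± 4.78 in RD mice and at 96.2% ± 5.23 in HFD and 94.8% ± 3.35 in RD mice (SD, n = 6 each).

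**Figure D4:**
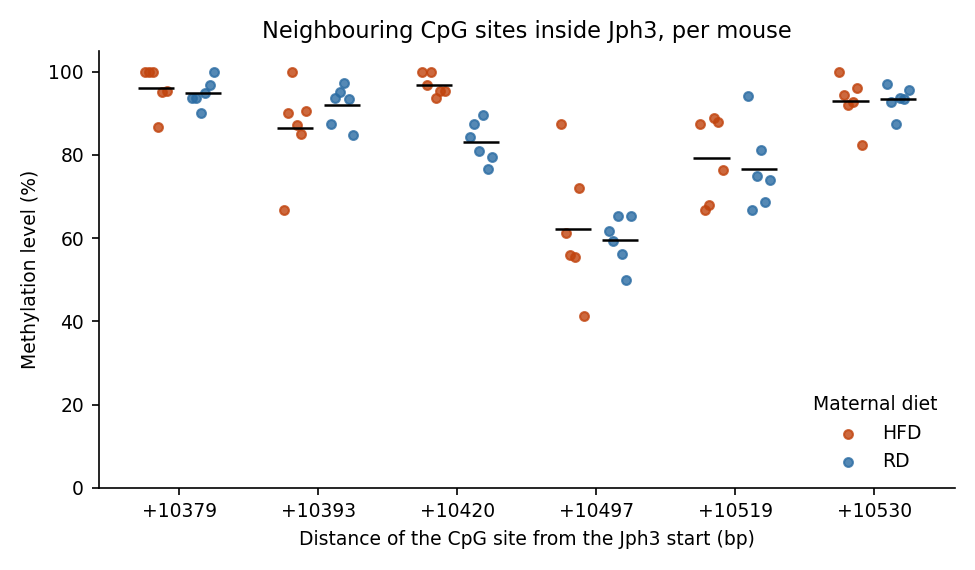
Methylation level (%) per mouse at 6 neighbouring CpG sites inside Jph3, labelled by distance from the gene start in base pairs, with the diet mean as a bar. At +10420 the HFD mice (93.6 to 100%) lie above the RD mice (76.7 to 89.5%), and at the other 5 sites the diets overlap.

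An unadjusted limma p under 0.05 was found at 15 of 210 member sites (7.14%), against 6.53% of all sites, so the share was near the background. These 15 lay in Cacna1c (7 sites), Jph2 (4), Jph3 (3) and Casq2 (1), and 10 of them were lower in HFD. The diets did not overlap at 4 member sites (1.90%, against 0.482% of all sites): the called Jph3 site, a site of Jph3 at 121753506 (48.3% ± 7.31 in HFD and 63.0% ± 6.11 in RD mice) and sites of Cacna1c at 118593925 (15.3% ± 3.10 and 24.6% ± 3.20) and at 119052580 (57.4% ± 4.05 and 47.9% ± 3.00; SD, n = 6 each). The latter 3 did not pass adjustment (limma, adjusted p = 0.578, 0.607 and 0.721) and were chosen after their values were seen. Of the 210 sites 120 (57.1%) had a lower mean in HFD mice, against 52.9% of all sites, and the median difference was -0.99 percentage points, against -0.26.

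Over stretches of 500 bases with at least 3 sites, limma called 0 of 30 member stretches, against 0.0294% of 23791 (7 stretches). An unadjusted p under 0.05 was reached by 2 (6.67%, against 7.81% of all stretches). A lower mean in HFD mice was found in 19 of 30 (63.3%, against 53.3%), and the diets were free of overlap in 0 of 30, against 0.626% of all stretches. The Casq2 stretch at chr3:102099450-102099488, about 13 kb inside the gene, ran from 33.5 to 49.2% in HFD (median 41.5%) and from 40.4 to 66.5% in RD mice (median 56.1%). Below all RD mice lay 3 of the 6 HFD mice. The means of 41.3% ± 6.79 and 54.8% ± 8.64 (SD, n = 6 each) differed by -13.6 points (limma, adjusted p = 0.439). The Cacna1c stretch at chr6:118593871-118593942, with 9 sites, averaged 18.8% ± 2.28 in HFD and 26.2% ± 4.92 in RD mice (limma, adjusted p = 0.439). The stretch of Jph3 that holds the called site averaged 93.2% ± 4.23 and 89.9% ± 2.31 (limma, adjusted p = 0.653).

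Averaged over the gene with 5 kb on each side, limma called 0 of 9 members for diet, against 0.104% of 19275 gene regions (20 regions). An unadjusted p under 0.05 was found for 1 of the 9, against 7.47% of all regions. On untransformed rates it was found for 2 of the 9 and for 1465 of the 19275 regions. In HFD mice 8 of the 9 had a lower mean, against 50.3% of all regions, with a median difference of -0.65 percentage points, against -0.0084. On the ratio scale 3 of these 8 changed sign when single mice were left out, Jph3 in 6 of 12 fits, Atp2a2 in 4 and Jph4 in 2. The diets overlapped in all 9, while they did not in 0.612% of all regions. In Casq2 the HFD mice had 39.7 to 45.3% (median 42.8%) and the RD mice 41.8 to 50.8% (median 46.9%), a difference adjusted for sex of -3.80 points (95% interval -7.36 to -0.230 on untransformed rates; limma on the ratio scale, unadjusted p = 0.0468, adjusted p = 0.658). Of its 10 sites, 3 make up the stretch at chr3:102099450-102099488, where the difference, not adjusted for sex, was -13.6 points. Elsewhere in the Casq2 region it was -2.67 points at the start, 7.55 in the flank, 1.39 at 102100617 and -0.466 at 102119413-102119416. In Jph2 the HFD mice had 35.1 to 41.4% (median 38.0%) and the RD mice 38.8 to 44.6% (median 40.5%). The Jph2 difference adjusted for sex was -2.32 points (-4.61 to -0.034 on untransformed rates). On the ratio scale its interval was -0.265 to 0.0101 (limma, unadjusted p = 0.0662, adjusted p = 0.6996). The interval was widest for Slc8a1, at 0.451 points (-10.4 to 11.3), and narrowest for Ryr2, at -0.511 points (-1.58 to 0.555). For Cacna1c the difference was -0.965 points (-2.78 to 0.852), for Jph1 -1.12 (-4.13 to 1.90), for Jph4 -0.441 (-2.70 to 1.82), for Atp2a2 -0.277 (-2.90 to 2.35) and for Jph3 -0.114 (-2.59 to 2.36).

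**Figure D5:**
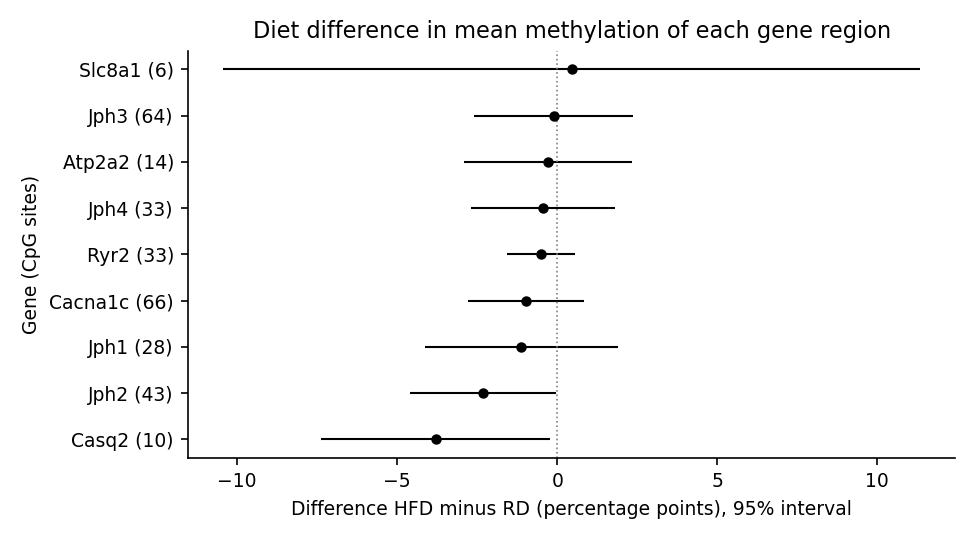
Difference between HFD and RD mice in the mean methylation of each gene region, in percentage points adjusted for sex, with the 95% interval from limma on untransformed rates and the number of CpG sites in brackets. Of the 9 points 8 lie below 0, and the intervals of Casq2 (-7.36 to -0.230) and Jph2 (-4.61 to -0.034) exclude 0 before adjustment for the number of regions.

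At gene starts limma called 0 of 8 members for diet, against 0.0742% of 10783 starts (8 starts), and 0 of the 8 had an unadjusted p under 0.05, against 6.79% of all starts. The HFD mean was lower at 4 of 8 starts, against 44.9% of all, and the diets did not overlap at 0 of 8, against 0.575%. At the start of Jph2 the difference adjusted for sex was -2.28 points (95% interval -7.48 to 2.92), at that of Jph3 0.520 points (-0.896 to 1.94) and at that of Slc8a1 2.14 points (-17.8 to 22.1). Jph4 had fewer than 3 start sites and was not tested.

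Females and males were compared in the same gene regions. Limma called 0 of 9 members for sex, against 0.0156% of regions (3 regions), and 1 had an unadjusted p under 0.05, against 5.69%. The sexes were free of overlap in 0 of 9 members, against 0.311% of regions. That gene was Jph2, at 41.0% ± 1.72 in the 7 females and 37.3% ± 2.67 in the 5 males (SD; limma, unadjusted p = 0.0163, adjusted p = 0.844). HFD males 2, 3 and 4 had 35.1, 36.3 and 35.2% and RD males 1 and 2 had 41.3 and 38.8%, against 39.6 to 44.6% in females. The effect of diet differed between the sexes in 0 of 9 members, against 0% of 19275 regions (limma, adjusted p under 0.05), and 0 members and 983 regions (5.10%) had an unadjusted p under 0.05. For Jph2 the difference of the diet effects was 3.73 points (95% interval -0.441 to 7.90 on untransformed rates, limma on the ratio scale, unadjusted p = 0.103).

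Of 48 further genes of calcium handling (other ryanodine receptors, pumps, calcium channel subunits, exchangers, calmodulin kinases and regulators), 41 had a gene region to test. Limma called 0 of the 41 higher and 0 lower in HFD, and 0 had an unadjusted p under 0.05. The median difference was -0.0092 points and 21 of 41 were lower in HFD mice, near the 50.3% of all regions. Among those with the smallest p-values were Cav3, which encodes the muscle caveolin (44.3% in HFD and 50.8% in RD mice, adjusted p = 0.680), and Tmem38a, a potassium channel of the store (13.1 and 14.1%, adjusted p = 0.687, both limma). For sex, 0 of 41 were called and 3 had an unadjusted p under 0.05: Ryr3 (75.3% in females and 71.8% in males, adjusted p = 0.734), Ppp1r1a (13.4 and 19.7%, adjusted p = 0.844) and Cacna1g (49.0 and 46.5%, adjusted p = 0.844, all limma). For the difference of diet effects between sexes 0 of 41 were called and 0 had an unadjusted p under 0.05, the smallest p-values being those of Slc8a3, Atp2b4 and Camk2g (limma, adjusted p = 0.964 each). Near their starts 27 of the 48 genes had 3 or more sites, of which 19 averaged under 5% and 4 between 20 and 80%. Those 4, named after their values were seen, were Cacna1g at 38.95%, Camk2a at 45.5%, Cav3 at 47.6% and Cacna1h at 74.6%.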

How the data were processed

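The authors deposited 1 table with a row per cytosine of a CpG and a column per sample, whose values are percent methylation. Per the submitters' processing notes, reads were handled with FastQC, Trim Galore and Bismark 0.19 on mm10, and limma was used. The coverage minimum is not given in the sources used here. As a check of the build, 99.98% of the table's positions in RefSeq start windows of GRCm38.p6 lay on a CG. They lay on its C in 48.8% and on its G in 51.2%, so cytosines of both strands are listed. A CpG can therefore appear in more than 1 row, as at chr14:55115657 and 55115658 in Jph4. Each row was counted as a site.

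Rates were turned into log2((rate + 0.05)/(1 - rate + 0.05)) and fitted with limma 3.58.1 under R 4.3.3. The model held additive terms for diet and sex, or 1 mean per group for the interaction. Tests were two-sided, and Benjamini-Hochberg adjustment ran over all autosomal features of a kind at a threshold of 0.05. Features were single sites (mean 5 to 95%), stretches of 500 bp (at least 3 sites, mean 5 to 95%), gene regions with 5 kb flanks and gene starts with 1 kb on each side (at least 3 sites each). Where RefSeq gave no start, both gene ends were used. Differences in percentage points with 95% intervals came from the same model on untransformed rates. Named features were all 10 members, the sites, stretches and pathway genes past the threshold, or the 3 with the smallest p-value where none passed, and in each member the stretch (at least 3 sites) with the smallest p-value or largest spread. A further gene that the rule names is not reported here. The scripts were tested on simulated data in which 200 features were shifted by a known amount. For diet at single sites, 0% of shifts of 1 on the log2 ratio scale and 55% of shifts of 2 were recovered. For diet in stretches, gene regions and starts, the shares were 73 to 93% and 97 to 98.5%. Smaller changes at single sites can therefore be missed. The members, lists and tests were chosen with earlier results of these data known. Alternatives covered the offset, scale, variance model, replicate block, sex term, limits, windows and leaving out each mouse. Figures were drawn with matplotlib 3.10.9.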

Additional observations from a re-analysis of the deposited data

Results flagged for a closer look

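Of 56 groups of 6 mice examined (each diet at every gene region, start, named or most variable stretch, and the called site), 6 held a mouse far from the other 5 by Dixon's test at 95%. In unselected groups chance flags about 1 in 20. Some of these groups share sites, and the most variable stretches were chosen for their spread, so no number expected by chance is given for this set. At the Ryr2 start, RD male 2 had 4.45% against 1.43 to 2.50% in the other RD mice. At the Casq2 start, RD female 1 had 15.1% against 0 to 3.51%, and HFD female 4 had 4.43% against 0 to 1.45%. Over the Slc8a1 region, RD female 4 had 45.4% against 52.2 to 56.0%. Over the Jph1 region, which is also its start, HFD male 3 had 7.37% against 0.843 to 2.85%. In the Ryr2 stretch at chr13:12039601-12039664, HFD male 3 had 56.6% against 68.6 to 73.5%.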

How the results depend on the processing

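The count of 1 called member site fell to 0 with an offset of 0.01, without the sex term, with the limit of 20 to 80% (which the site, at a mean of 90.0%, does not enter), with missing values allowed and with a replicate block, and ranged from 0 to 1 when single mice were left out. It stayed at 1 with untransformed rates, with trend and robust variances and with no limit on the mean. The counts for stretches, gene regions, starts, sex and interaction were 0 under every alternative run. Calls over the whole table moved more. The 16 called sites became 78 with untransformed rates, 31 with trend and robust variances, 27 without the sex term, 39 with no limit on the mean, 54 with the limit of 20 to 80%, 1 with missing values allowed and 0 to 22 without single mice. The 7 called stretches became 17 with untransformed rates, 13 without the sex term, 19 at 20 to 80%, 16 with at least 5 sites and 3 to 11 without single mice. The 20 gene regions called for diet became 12 with an offset of 0.01, 8 with no flank, 8 with at least 10 sites and 5 to 19 without single mice. The 8 starts became 3 with that offset, 5 with trend and robust variances and 1 to 5 without single mice. The replicate block left 0 in each. For sex, 3 regions became 0 with the offset, 1 with the replicate block and 0 to 4 without single mice, and for the interaction 0 became up to 40. The cause was not tested.

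Some diet changes near 0 on the log2 ratio scale turned sign. With the replicate block that of Atp2a2 became 0.081. With no flank those of Slc8a1 and Jph3 became -0.067 and 0.0030. Without single mice the range was -0.051 to 0.040 for Atp2a2, -0.21 to 0.21 for Slc8a1, -0.039 to 0.021 for Jph3 and -0.061 to 0.0074 for Jph4. None of these passed the threshold in any fit. Jph2 exceeded Jph4 by 16.8 points within 500 bp, and Jph2 could not be compared with Jph3 there.

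Same-numbered mice of the same sex in both diets (4 pairs) did not deviate together (r from -0.030 to 0.010 across sites, which are not independent), so the numbers do not pair the mice. The adjusted p of the Jph3 site under the replicate block was 0.835. The planned coverage minimum was not run, since the table gives no coverage. Fits that leave 1 RD male assume that it varies like the other mice. Unknown depth limits every single-site value.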
